A study of Mus musculus with 11 samples.

Results

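Col1a1, Col1a2, Col3a1, Col5a1, Col5a2, Col6a1, Col6a2 and Col6a3 are 8 collagen genes that fibroblasts use to build connective tissue. They were taken by gene symbol from a fixed list, and all 8 were found among the 19938 genes measured. Each was read by 1 probe set, so no choice between probe sets was needed. The cells were mouse embryonic fibroblasts (MEFs) from 13.5 dpc male embryos of an F1 hybrid cross, and they carried the doxycycline-responsive transactivator ROSA-rtTA and a Nanog-GFP reporter. All cells received a piggyBac transposon (PB-TAC vector) with its transposase plasmid, and ES cell medium with 1 µg/mL doxycycline from the day after. The 8 cassettes, STEMCCA, MKOS, OSKM, WTSI, EB-C5, OK+9MS, OKN-HAMS and OKMS, each encode several reprogramming factors in a single transcript, and Klf4S and Klf4L carry Klf4 alone. These 10 populations were sorted on day 6 for mCherry, which the vector expresses together with the transgene. The lacZ cells were unsorted and came from day 2, so a difference from lacZ holds time, sorting and transgene together, and these cannot be told apart. There was 1 array per construct, and the labels do not say whether the populations came from separate MEF isolates. The SDs and p-values below therefore measure the spread between constructs, not between repeated cultures.

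Collagens are secreted proteins in which 3 chains wind into a triple helix. Col1a1 and Col1a2 encode the chains of type I collagen, the main fibril former of skin and bone, and Col3a1 encodes type III collagen, which shares fibrils with it in elastic tissues. Col5a1 and Col5a2 encode type V collagen, which starts fibrils and limits their width, and the 3 Col6 genes encode type VI collagen, a beaded filament around cells. Fibroblasts are known for high collagen expression, and loss of the fibroblast programme is an early step of reprogramming to pluripotency. Pou5f1 (Oct4), a factor of the cassettes, was used as the measure of cassette expression, and its signal can come from the transgene. Whether it stands for the whole cassette was not tested.

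On the arrays the Pou5f1 signal (RMA values, log2 scale) rose over the cassettes from 11.89 in STEMCCA and 12.29 in MKOS through 12.73 in OSKM, 12.88 in WTSI, 12.94 in EB-C5 and 13.01 in OK+9MS to 13.12 in OKN-HAMS and 13.22 in OKMS. Without a cassette it read 6.06 (Klf4S), 5.84 (Klf4L) and 6.09 (lacZ). The Sox2 signal was 6.22 (STEMCCA) to 7.76 (WTSI) in the cassettes, 6.24 and 6.33 in Klf4S and Klf4L and 6.79 in lacZ. The Klf4 signal was 9.64 (STEMCCA) to 10.20 (WTSI) in the cassettes, 9.93 and 9.71 in Klf4S and Klf4L and 9.47 in lacZ. The Myc signal was 9.86 (EB-C5) to 10.91 (OK+9MS), 9.05 and 8.65, and 9.54 in the same groups. The label of fibroblast was checked with 14 marker genes, whose mean lay between 9.87 and 10.80 in the cassettes, at 11.05 and 11.06 in Klf4S and Klf4L, and at 11.00 in lacZ. The mean of 8 macrophage markers was 6.16 to 6.48 in the cassettes, 6.30 and 6.31 in Klf4 alone and 6.25 in lacZ, with Ptprc and Adgre1 under 6 on all 11 arrays. The exception was Cd68, a lysosomal protein, at 8.11 to 9.62 in the cassettes, 8.43 and 8.52 in Klf4 alone and 8.19 in lacZ. Array medians ran from 7.19 to 7.27. In bulk RNA, fewer fibroblasts and less collagen RNA per fibroblast cannot be told apart.

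The sequence before the annotated start is shown for 3 members, from types III, I and VI, because the signals of all 8 moved together over the cassettes. The sequences are the 250 bases upstream of the start in RefSeq for build GRCm38.p6, written 5′ to 3′ on the gene's strand. Capitals mark the letters of the motifs searched.
Col3a1, chr1:45311288-45311537, plus strand: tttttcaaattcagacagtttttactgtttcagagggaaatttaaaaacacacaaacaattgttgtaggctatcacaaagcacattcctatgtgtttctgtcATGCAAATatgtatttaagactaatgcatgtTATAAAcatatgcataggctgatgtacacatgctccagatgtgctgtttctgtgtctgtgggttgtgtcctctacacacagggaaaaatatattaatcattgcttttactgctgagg
Col1a2, chr6:4505368-4505617, plus strand: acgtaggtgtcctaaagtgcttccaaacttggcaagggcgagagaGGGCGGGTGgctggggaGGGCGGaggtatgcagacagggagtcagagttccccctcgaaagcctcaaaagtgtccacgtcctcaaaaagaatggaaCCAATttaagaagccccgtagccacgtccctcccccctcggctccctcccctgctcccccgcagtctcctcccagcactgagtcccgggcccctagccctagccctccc
Col6a1, chr10:76726045-76726294, minus strand: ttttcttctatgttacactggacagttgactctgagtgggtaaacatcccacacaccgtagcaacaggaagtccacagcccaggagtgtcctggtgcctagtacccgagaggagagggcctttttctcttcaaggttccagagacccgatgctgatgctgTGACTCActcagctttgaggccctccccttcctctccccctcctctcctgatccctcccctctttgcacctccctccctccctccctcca

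In the table of promoters used, 6 of the 8 members had an entry (Col1a2, Col3a1, Col5a1, Col6a1, Col6a2 and Col6a3). The motifs were searched on both strands in the same 250-base window, and a match is a description of the letters only. ATGCAAAT, the octamer that Oct4 can bind, was in the Col3a1 window from position -148 to -141 and in none of the windows of the other 5 members in the table; 1.6% of 32851 promoter windows held it. TATAAA was also in the Col3a1 window, from -117 to -112, against 12.4% of windows. CACCC, the core that Klf4 can bind, was in the windows of Col1a2, Col5a1 and Col6a2, against 52% of all windows, and in Col1a2 it overlapped a GC box. The CCAAT box was in the Col1a2 window, from -109 to -105, against 33.8%. GGGCGG, the GC box, was in those of Col1a2, Col5a1 and Col6a2, against 32.7%. TGANTCA, a site of AP-1 factors, was in the Col6a1 window, from -90 to -84, against 6.75%. Col5a1 and Col6a2 held only CACCC and the GC box, which Col1a2 held beside a CCAAT box, and Col6a3 held none of those searched. Col6a2 had more than 1 annotated start in the table, and each of its windows held both motifs. The windows of Col5a1 and Col6a3 did not lie at the first annotated start of the gene.

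Type I collagen was read first. The Col1a1 signal lay at 11.92 (OKN-HAMS), 12.31 (median) and 12.87 (STEMCCA) in the 8 cassettes, while Klf4S read 13.21, Klf4L 13.09 and lacZ 11.91. Every cassette lay below both Klf4 constructs and above lacZ. The Col1a2 signal lay at 11.01 (OKN-HAMS), 11.54 (median) and 12.27 (STEMCCA) in the cassettes, while Klf4S read 12.65, Klf4L 12.60 and lacZ 11.45. Here too the cassettes lay below both Klf4 constructs, but lacZ fell among them, with 4 of 8 cassettes above it.

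Col3a1 covered the widest span of levels over the 11 arrays among the 8 genes, and lacZ was its lowest array. Its signal was 9.54 (OKMS), 9.99 (median) and 10.94 (STEMCCA) in the cassettes, against 11.31 and 11.25 for Klf4S and Klf4L, and 8.93 for lacZ. All 8 cassettes lay above lacZ, a single array, as was also so for Col1a1, Col6a1 and Col6a2. The gap was small for Col1a1, where OKN-HAMS read 0.004 above lacZ, and for Col6a2, where it read 0.06 above. All cassettes lay below both Klf4 constructs in 17.8% of all genes and above lacZ in 13.3%. The share with both was not computed. Col5a2, its neighbour on chromosome 1 with 0 protein-coding genes between them, read 8.42 (OKN-HAMS), 9.26 (median) and 10.22 (STEMCCA) in the cassettes, against 10.58 and 10.53 for Klf4S and Klf4L, and 9.51 for lacZ. For Col5a2 the lacZ array lay inside the cassettes, below only MKOS and STEMCCA. The log2 difference of Col3a1 from Col5a2, set to a mean of 0 over the cassettes, was between -0.15 and 0.44 in the cassettes, -0.05 and -0.03 in the Klf4 constructs and -1.34 in lacZ, so these neighbours changed unequally between lacZ and the day 6 arrays.

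Col5a1, the partner chain of Col5a2, read 8.47 (OKN-HAMS), 8.99 (median) and 9.56 (STEMCCA) in the cassettes, against 9.98 and 9.94 for Klf4S and Klf4L, and 9.17 for lacZ. Again 2 cassettes, MKOS and STEMCCA, lay above lacZ. The type VI genes Col6a1 and Col6a2 are neighbours on chromosome 10 and had alike profiles. Col6a1 read 10.38 (OKMS), 10.63 (median) and 11.02 (MKOS) in the cassettes, against 11.30 and 11.20 for Klf4S and Klf4L, and 10.06 for lacZ. Col6a2 read 10.03 (OKN-HAMS), 10.35 (median) and 10.93 (STEMCCA) in the cassettes, against 11.09 and 11.00 for Klf4S and Klf4L, and 9.97 for lacZ. For both genes lacZ was the lowest array. Col6a3, the large chain of the same filament, lies on chromosome 1. It read 9.81 (OKN-HAMS), 10.11 (median) and 11.20 (MKOS) in the cassettes, against 11.47 and 11.36 for Klf4S and Klf4L, and 10.24 for lacZ, with 3 cassettes above lacZ.

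**Figure D1:**
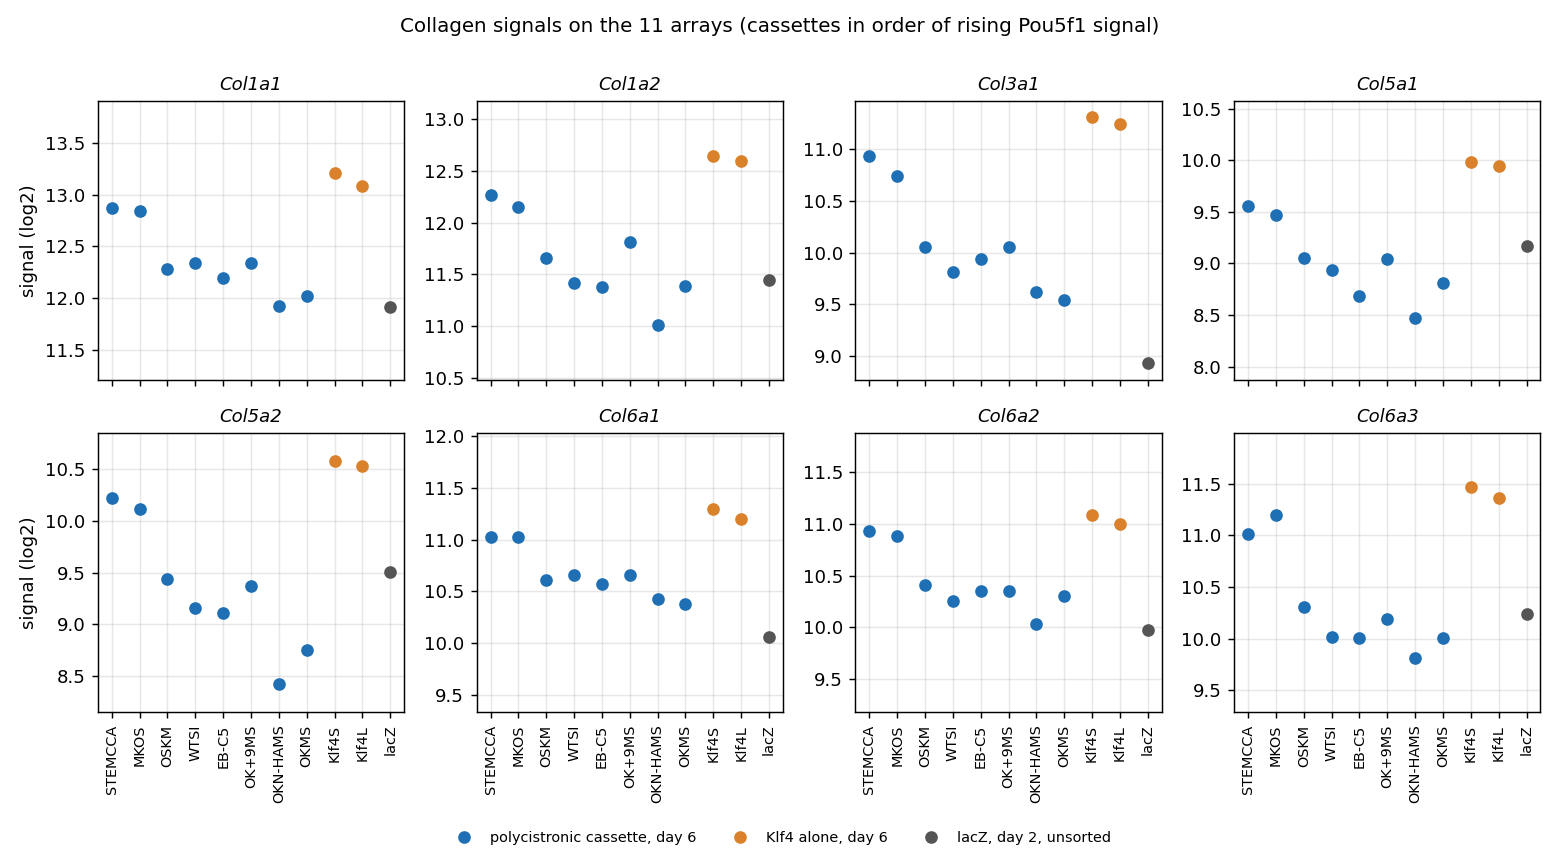
Signal (log2) of each collagen gene on the 11 arrays, 1 point per construct, with the cassettes ordered by rising Pou5f1 signal. STEMCCA and MKOS are the 2 highest cassettes in all 8 panels, the 2 Klf4 constructs lie above every cassette, and lacZ is the lowest array for Col1a1, Col3a1, Col6a1 and Col6a2.

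The order of the cassettes was nearly the same for every gene. STEMCCA was the highest cassette for 6 genes and MKOS for the other 2, Col6a1 and Col6a3. STEMCCA and MKOS held the top 2 places for all 8 genes, an order that 9.34% of all 19938 genes showed; the pair was picked out after the values were seen. OKN-HAMS was lowest for 6 genes and OKMS for Col3a1 and Col6a1. After each gene was centred on its cassette mean, the mean of the 8 genes was 0.62 in STEMCCA, 0.58 in MKOS, near 0 in OSKM and OK+9MS, -0.15 in WTSI, -0.20 in EB-C5, -0.33 in OKMS and -0.52 in OKN-HAMS. Col5a2 varied most among cassettes (SD 0.62, n = 8) and Col6a1 least (SD 0.24, n = 8). With 1 array per construct, neighbours in this order cannot be compared beyond their error. The 28 correlations between pairs of the 8 genes over the 8 cassettes ran from 0.91 to 0.99 with a median of 0.95, a description of arrays that share the same libraries.

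The cassettes were compared with Klf4 alone, sorted on the same day, to see what the further factors changed in collagen expression. All 8 genes were lower in every cassette than in both Klf4 constructs, as were 17.8% of all genes. The median difference of the 8 was -0.97 on the log2 scale, against -0.02 over all genes. Col3a1, Col1a2, Col5a1 and Col6a1 passed the test, 4 of 8, against 8.12% of all genes called lower (limma, Benjamini-Hochberg adjusted p under 0.05). Type III Col3a1 was 2.29-fold lower (limma adjusted p = 0.0462), a log2 difference of -1.19 with an SE of 0.34 between 8 cassettes and 2 Klf4 constructs. Col1a2 was 1.98-fold lower (-0.99 ± 0.29, limma adjusted p = 0.0489) and Col5a1 1.94-fold (-0.96 ± 0.25, limma adjusted p = 0.0346). Col6a1 was lower by -0.58 ± 0.17 on the log2 scale (limma adjusted p = 0.0464). The other 4 had differences of -1.23 ± 0.42 for Col5a2, -1.09 ± 0.35 for Col6a3, -0.80 ± 0.24 for Col1a1 and -0.61 ± 0.21 for Col6a2, with limma adjusted p between 0.0509 and 0.0821. The adjusted p of all 8 lay near the threshold, and the number called changed with the arrays used. It was 8 without MKOS or without STEMCCA. It was 1 without EB-C5 or without OKN-HAMS, and 0 without OSKM, OKMS, OK+9MS, WTSI, Klf4S or Klf4L, each left out in turn. In each of these fits all 8 differences kept their sign, and they moved by at most 0.13. After quantile normalization 1 was called, Col5a1. Cell division genes moved with this comparison, with a mean of 9.65 to 10.97 over 7 genes in the cassettes against 8.44 and 8.48 in Klf4 alone, and all 7 were called higher; their part in the collagen difference was not tested.

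**Figure D2:**
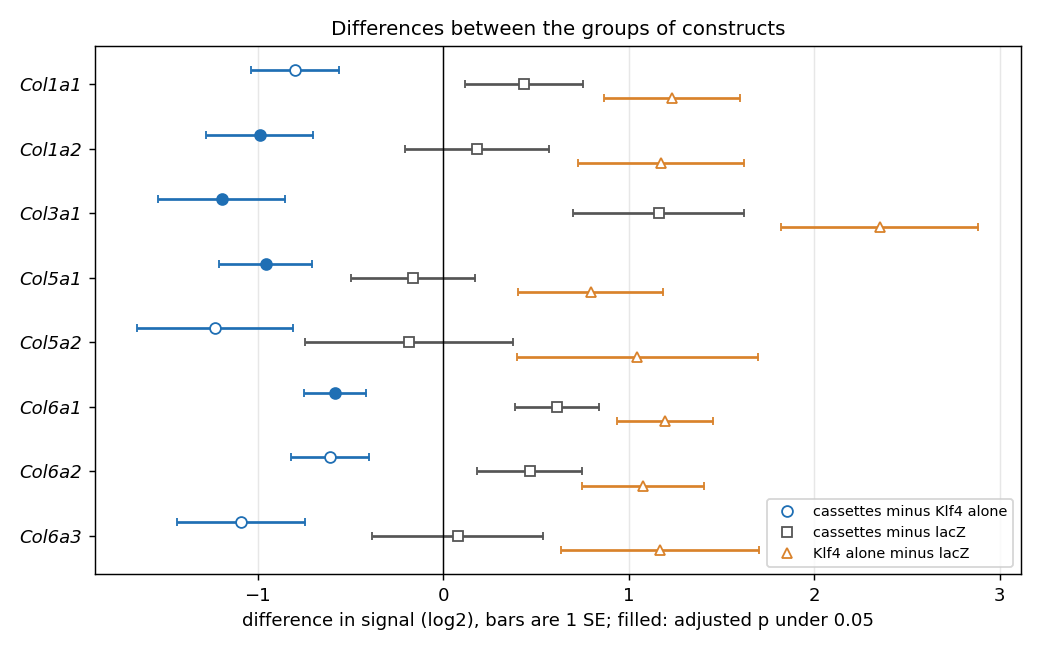
Fitted difference in signal (log2) of each collagen gene for the 3 comparisons, with bars of 1 SE and filled symbols where the limma adjusted p is under 0.05. Differences between the cassettes and Klf4 alone lie between -1.23 and -0.58, and those between Klf4 alone and lacZ between 0.79 and 2.35.

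Klf4 alone was compared with lacZ, the reference that the series names. The 2 Klf4 constructs lay above lacZ for all 8 genes, as for 38.7% of all genes, and 7 of the 8 were at least 2-fold above it in both Klf4 constructs, against 1.72% of all genes. The exception was Col5a1, with a difference of 0.79 ± 0.39. Col3a1 had the largest difference, at 2.35 ± 0.53 on the log2 scale (n = 2 against n = 1, limma adjusted p = 0.0896), followed by Col1a1 at 1.23 ± 0.37, Col6a1 at 1.20 ± 0.26, Col1a2 at 1.17 ± 0.45, Col6a3 at 1.17 ± 0.53, Col6a2 at 1.08 ± 0.33 and Col5a2 at 1.05 ± 0.65. The median was 1.17, against -0.00 over all genes. In limma 0 of 8 passed after adjustment, against 0.271% of all genes called higher. At an unadjusted p under 0.05 there were 5 of 8, against 11.5% of all genes, and with an intensity trend in the variance 0 passed after adjustment. The difference itself does not use the cassettes, which add only to the estimate of spread, but leaving out MKOS gave 1 call, Col6a1 (limma adjusted p = 0.0449), and leaving out STEMCCA gave 1, Col3a1 (limma adjusted p = 0.0458). Cell division genes moved with this comparison as well, from a mean of 10.57 in lacZ to 8.44 and 8.48 in Klf4 alone. Their median difference was -1.99, with 7 of 7 at an unadjusted p under 0.05 and 1 called lower, the kinase Cdk1 (limma adjusted p = 0.0315), and their part in the collagen difference was not tested.

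The cassettes against lacZ gave no common direction among the 8 genes. For Col1a1, Col3a1, Col6a1 and Col6a2 all 8 cassettes lay above lacZ, as for 13.3% of all genes, with differences of 0.44 ± 0.32, 1.16 ± 0.46, 0.61 ± 0.23 and 0.47 ± 0.28. For Col1a2 (0.18 ± 0.39), Col6a3 (0.08 ± 0.46), Col5a1 (-0.16 ± 0.34) and Col5a2 (-0.18 ± 0.56) lacZ lay among the cassettes. In limma 0 of 8 passed after adjustment, against 0.456% of all genes called higher and 1.59% called lower. At an unadjusted p under 0.05 there were 2, Col3a1 and Col6a1, against 15.5% of all genes in either direction, and with an intensity trend 0 passed after adjustment. The 3 comparisons share arrays pairwise, so their values are not independent of each other.

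Over the 8 cassettes the collagen signals were then set against the Pou5f1 signal. All 8 genes read lower where Pou5f1 read higher, with slopes from -0.50 for Col6a1 to -1.26 for Col5a2 and a median of -0.77, against 0.02 over the 19937 genes tested. A slope of -1 means a fall by 1 in the log2 collagen signal for each rise by 1 in the log2 Pou5f1 signal. Col3a1 had a slope of -1.08 ± 0.11 SE (limma adjusted p = 0.0304 over all genes, n = 8), Col5a2 of -1.26 ± 0.20, Col6a3 of -1.03 ± 0.17, Col1a1 of -0.71 ± 0.11, Col6a2 of -0.63 ± 0.10 and Col6a1 of -0.50 ± 0.08, with limma adjusted p from 0.0443 to 0.0485 for the last 5. These 6 of 8 passed the test, against 0.647% of all genes called with a negative slope. With each array centred on its median 3 passed, Col3a1, Col5a2 and Col6a3. Col1a2 (-0.81 ± 0.18, limma adjusted p = 0.0795) and Col5a1 (-0.73 ± 0.14, limma adjusted p = 0.0632) did not pass.

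Pearson's r with Pou5f1 was -0.97 for Col3a1 (two-sided exact permutation p = 0.000595, n = 8; Spearman's rho -0.90, exact p = 0.00456). For Col6a1 r was -0.94 (exact p = 0.00159; rho -0.84, exact p = 0.0131) and for Col1a1 -0.93 (exact p = 0.00154; rho -0.84, exact p = 0.0131). For Col6a2 it was -0.92 (exact p = 0.00444; rho -0.81, exact p = 0.0218), for Col5a2 -0.92 (exact p = 0.000868; rho -0.90, exact p = 0.00456) and for Col6a3 -0.91 (exact p = 0.00848; rho -0.81, exact p = 0.0218). For Col5a1 it was -0.89 (exact p = 0.00315; rho -0.83, exact p = 0.0154) and for Col1a2 -0.86 (exact p = 0.00444; rho -0.76, exact p = 0.0368). Negative r with an exact p under 0.05 was found in all 8 genes and in 8.18% of the 19937 relations tested. After adjustment over these, the exact permutation p of r lay between 0.155 and 0.195 for the 8 genes and that of rho between 0.291 and 0.399, and 0 of 19937 genes passed by either measure, against 2761 at an unadjusted exact p of r under 0.05.

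STEMCCA and MKOS lay farthest from the median Pou5f1 signal. Without both, limma called 0 of 8, but it also called 0 of all 19937 genes. The slopes stayed negative for all 8 genes, from -0.38 for Col6a2 and -0.55 for Col6a1 to -1.73 for Col5a2. Among them, Col1a2, Col3a1, Col6a2 and Col6a3 (-0.66) had slopes nearer to 0 than over all 8 cassettes, and Col5a2 had one farther from it. Over the other 6 cassettes r stayed negative for all 8 genes, between -0.46 (Col1a2) and -0.80 (Col3a1), with exact permutation p from 0.0639 to 0.356, so 0 of 8 had an exact p under 0.05, against 1.63% of all genes with negative r. The median r of the 8 over these 6 cassettes was -0.70, against 0.01 over all genes. In limma, leaving out 1 cassette at a time left 1 of the 8 called (Col3a1) without EB-C5 or without WTSI and 0 without any of the other 6. Of all 19937 genes, 115 had a called negative slope without EB-C5, 27 without WTSI and 0 in each of the other 6 fits. The counts of 0 were thus not particular to the collagens. With these single cassettes left out r ran from -0.79 (Col1a2) to -0.98 (Col3a1), each with an exact permutation p under 0.05. With the Myc signal in place of Pou5f1, 0 of 8 had a called slope, as had 0 of all 19937 genes, so this count does not set the collagens apart.

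**Figure D3:**
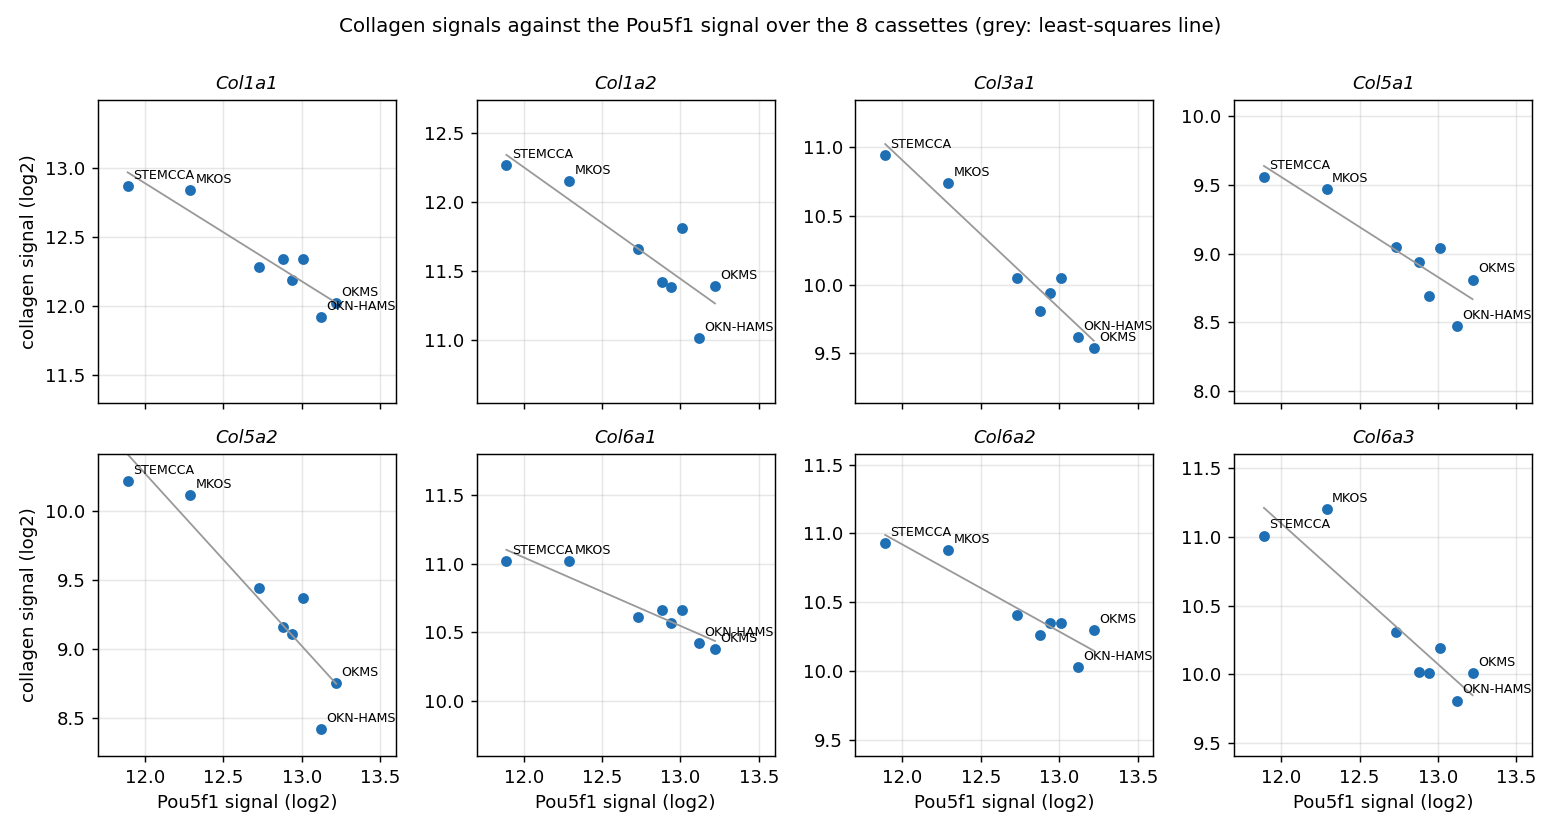
Signal (log2) of each collagen gene against the Pou5f1 signal (log2) over the 8 cassettes, 1 point per cassette, with a least-squares line; the 4 cassettes at the ends of the range are named. STEMCCA (Pou5f1 11.89) and MKOS (12.29) lie apart at the upper left of each panel, and the 6 others lie between 12.73 and 13.22.

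The fibroblast markers followed the same order of cassettes as the collagens, and the epithelial markers did not. The mean of 14 fibroblast markers was 10.80 in STEMCCA and 10.72 in MKOS, then 10.41 in OSKM, 10.34 in OK+9MS, 10.22 in WTSI, 10.14 in EB-C5, 10.10 in OKMS and 9.87 in OKN-HAMS. In the cassettes against Klf4 alone 0 of these 14 were called by limma (8.12% of all genes were called lower) and 9 had an unadjusted p under 0.05 (30.6% of all genes did), with a median difference of -0.75. The mean of 15 epithelial markers was 7.66 in STEMCCA and 9.54 in MKOS, the 2 cassettes with the highest collagen signals. It was 10.22 in OSKM, 10.20 in OKN-HAMS and 10.17 in OK+9MS, and 7.49 in WTSI, 7.55 in EB-C5 and 8.67 in OKMS. High and low epithelial signals were thus both found among cassettes with middle or low collagen signals. Cell division genes averaged 9.65 in MKOS, the lowest cassette, and 10.44 in STEMCCA, inside the range of the others. Their mean was highest in EB-C5 (10.97), OKMS (10.78) and OKN-HAMS (10.74). Over the 8 cassettes the r of each list mean with the mean of the centred collagens was 0.99 (fibroblast), -0.15 (epithelial) and -0.71 (cell division). The part of these lists in the collagen signals was not tested. In Klf4 alone the epithelial mean was 7.72 and 7.76, and in lacZ 7.20.

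**Figure D4:**
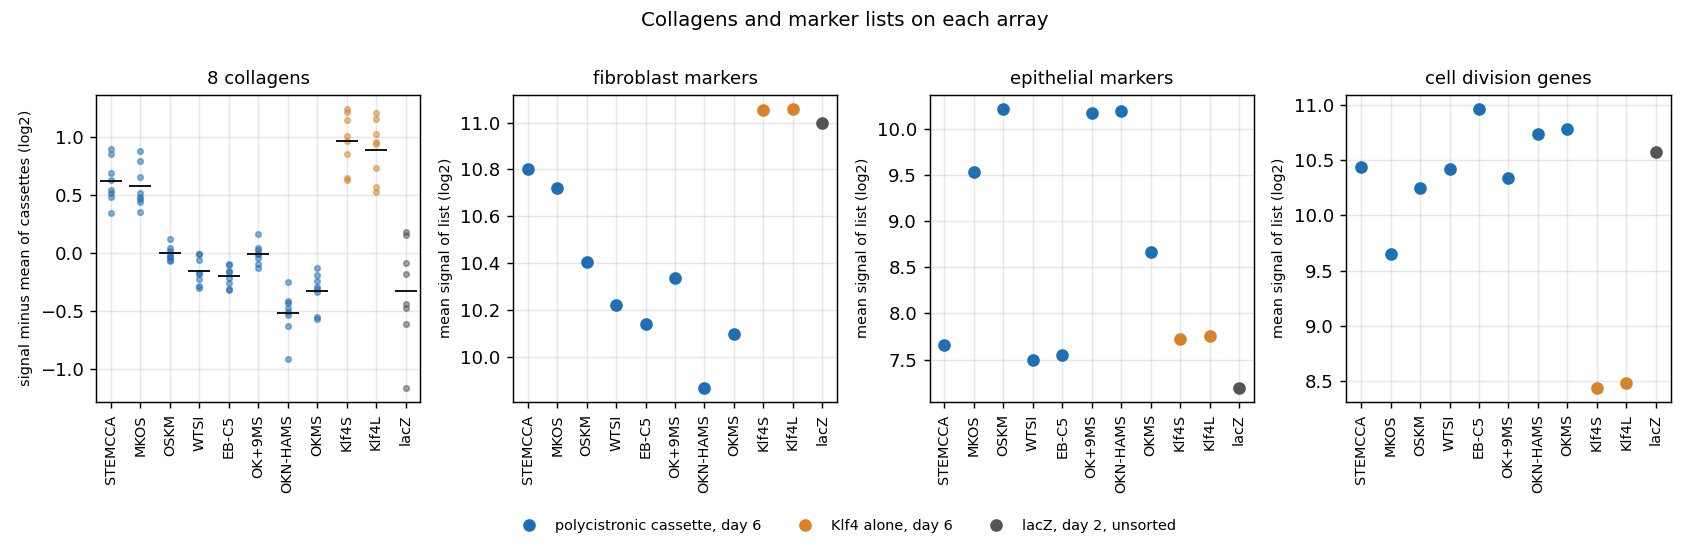
The 8 collagens (log2 signal minus each gene's mean over the cassettes, with the mean of the 8 as a bar) and the mean signals (log2) of the fibroblast, epithelial and cell division lists, on each array. The fibroblast list has its highest cassettes in STEMCCA (10.80) and MKOS (10.72), as the collagens do, while the epithelial list is at 7.66 in STEMCCA and 9.54 in MKOS.

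The 6 genes whose pattern over the 8 cassettes was most like the mean of the centred collagens were Mdfic, a regulator of transcription factors (r = 0.99), the kinase Dstyk (0.98), the secreted guidance factor Slit3 (0.98), the mitochondrial enzyme Sardh (0.98), the lysosomal lipase Lipa (0.98) and Ikbip (0.98). These values are descriptions, and 83 genes had r over 0.95. Slit3 read 9.86 to 11.28 in the cassettes, 11.60 and 11.71 in Klf4 alone and 10.78 in lacZ. Mdfic read 9.42 to 10.41 in the cassettes, 10.52 and 10.55 in Klf4 alone and 10.60 in lacZ.

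Other genes of collagen assembly, binding and turnover were read in 10 lists with 122 measured genes. In the cassettes against Klf4 alone 31 were called lower and 2 higher, so that 25.4% were lower, against 8.12% of all genes lower and 6.35% higher. Lower and higher in these lists are relative to Klf4 alone, not to lacZ. Among 19 measured genes that fold and modify the chains in the endoplasmic reticulum, 8 were called lower and 0 higher, with a median of -0.55. P3h3, a prolyl 3-hydroxylase family member, was lower by -0.92 ± 0.26 SE (limma adjusted p = 0.0417), the folding helper Fkbp14 by -0.86 ± 0.24, the prolyl 4-hydroxylase subunit P4ha2 by -0.78 ± 0.20 and Crtap, of the prolyl 3-hydroxylation complex, by -0.62 ± 0.14. The collagen chaperone Serpinh1 did not pass (-0.47, limma adjusted p = 0.133); it and the matrix genes Dcn and Lum below were named after their values were seen.

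Of 13 genes for export and cleavage of procollagen 2 were called lower and 1 higher. Sec24d, of the coat that carries procollagen out of the endoplasmic reticulum, was lower by 1.21. Bmp1, the protease that removes the C-terminal propeptide, was lower by 0.90. Pcolce2, an enhancer of that cleavage, was higher by 1.56 ± 0.31. Among 4 crosslinking enzymes Loxl4 was lower by 2.54 (SE 0.58, limma adjusted p = 0.0222), and the median of the 4 was -0.96. Of 16 fibril-associated matrix genes 1 was called lower, the tenascin Tnxb (-1.48 ± 0.07, limma adjusted p = 1.21e-05), and the list median was -0.78. The Tnxb mean in the cassettes, 6.53, lay near the 6.61 of lacZ, and that in Klf4 alone was 8.01. The small proteoglycans Dcn (-1.12, limma adjusted p = 0.261) and Lum (-0.89, limma adjusted p = 0.205), which coat collagen fibrils, did not pass. Tnxb was also the only gene of the 10 lists called against lacZ, at 1.40 ± 0.12 higher in Klf4 alone (limma adjusted p = 0.00103), from 6.61 in lacZ; 21 of the 122 (17.2%) had an unadjusted p under 0.05 in that comparison, against 11.5% of all genes. In the cassettes against lacZ 0 of 122 were called by limma, and 22 (18%) had an unadjusted p under 0.05, near the 15.5% of all genes.

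Of 12 collagen receptors 4 were called lower and 0 higher in the cassettes than in Klf4 alone. Mrc2, which takes up collagen for breakdown, was lower by 1.25 and the collagen-activated kinase Ddr2 by 1.00. The integrin chain Itgb1 was lower by 0.67 and Itga10 by 0.26. Of the 6 other fibrillar collagens 2 were called lower, Col11a1 by 0.94 and Col27a1 by 0.19. Of the 3 other type VI genes 0 passed, with Col6a4 at -0.07 and Col6a5 at -0.06. Both had low signals, at 6.52 to 6.84 for Col6a4 and 6.88 to 7.20 for Col6a5 in the cassettes. The array medians were 7.19 to 7.27. Basement membrane and remaining collagens showed 7 lower and 1 higher of 25, with Col8a1 lower by -1.43 ± 0.39, Col10a1 by -1.41 ± 0.31, Col4a5 by -0.66 ± 0.17 and Col16a1 by -0.43 ± 0.10. The 1 called higher was Col15a1, at 0.29, named after its value was seen. In the TGF-beta list, a pathway that induces collagen genes, 3 of 14 were called lower. They were the receptor Tgfbr2 (-1.62 ± 0.39), the ligand Tgfb2 (-1.06 ± 0.28) and the signal transducer Smad3 (-0.49 ± 0.12). In the list of collagen breakdown 3 of 10 were called lower, all inhibitors of metalloproteinases: Timp3 by 1.15, Timp2 by 0.87 and Timp1 by 0.81. The list median was -0.92. Proteases with differences as large did not pass: Ctsk (-1.50, limma adjusted p = 0.0836), Mmp13 (-1.33, limma adjusted p = 0.131) and Mmp14 (-1.12, limma adjusted p = 0.0641). Only Mmp8 (0.01) was not lower. These proteases were named after their values were seen.

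Against Pou5f1 over the cassettes 4 of the 122 had a called negative slope and 0 a positive one, a share of 3.28%, against 0.647% of all genes. They were Mrc2 (-1.11 ± 0.10, limma adjusted p = 0.0304), Col11a1 (-0.83 ± 0.10, limma adjusted p = 0.0304), P3h3 (-0.77 ± 0.13, limma adjusted p = 0.0465) and Col4a5 (-0.51). Their r over the 6 cassettes without STEMCCA and MKOS was -0.81 for Mrc2, -0.77 for Col11a1, -0.64 for Col4a5 and -0.36 for P3h3.

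**Figure D5:**
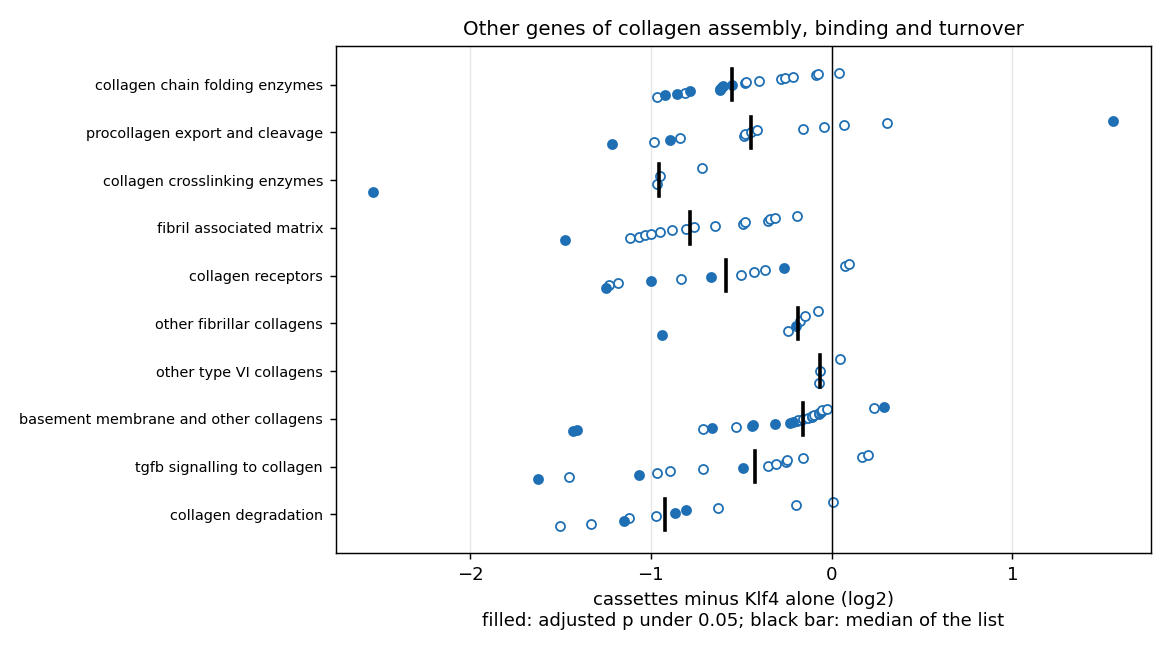
Fitted difference (log2) between the cassettes and Klf4 alone for each gene of the 10 lists of collagen assembly, binding and turnover, 1 point per gene, filled where the limma adjusted p is under 0.05, with the list median as a bar. Pcolce2 (1.56) and Col15a1 (0.29) are the 2 genes called higher, and Loxl4 (-2.54) has the largest negative difference.

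The form of Klf4 was compared in the 4 constructs whose labels name it, OKMS with OK+9MS and Klf4S (labelled Klf4) with Klf4L (labelled Klf4+9). Each was measured once, so no test was made. OK+9MS read above OKMS for all 8 genes, as for 51.9% of all genes, by 0.04 (Col6a2) to 0.62 (Col5a2) with a median of 0.30. The Pou5f1 signal differed too, at 13.22 in OKMS and 13.01 in OK+9MS, and cannot be told apart from the form of Klf4 here. Col3a1 read 9.54 in OKMS and 10.05 in OK+9MS. In Klf4 alone the order was the reverse: Klf4L read below Klf4S for all 8 genes, by -0.12 (Col1a1) to -0.03 (Col5a1), while 41.2% of all genes read higher in Klf4L. Higher in the first pair and lower in the second was the pattern of 28.9% of all genes. None of the 8 differed by 2-fold in either pair, against 3.18% of all genes in the first and 0% in the second. The differences in Klf4 alone were within the SD of 0.13 that all genes showed between these arrays, and those in the cassettes, apart from Col1a2, Col3a1 and Col5a2 (0.42 to 0.62), within the SD of 0.42 between OKMS and OK+9MS.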

How the data were processed

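Expression was measured on Affymetrix mouse gene arrays, 1 per construct (8 cassettes, 2 Klf4 constructs, 1 lacZ). The deposited values are log2 signals that the authors made with RMA, per the submitters' processing notes; they were used as deposited. Of 28856 probe sets, 21789 had 1 gene symbol in the platform annotation and gave 19938 genes, with the probe set of highest mean kept where a gene had several. Groups were compared in 1 limma model (limma 3.58.1, R 4.3.3) over the 11 arrays with Benjamini-Hochberg adjustment over all genes; lacZ adds no spread of its own and is assumed to vary like the others. The Pou5f1 slope was fitted over the 8 cassettes. Exact permutation tests used all 40320 pairings (720 for 6 cassettes). The number of arrays limits the precision.

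In simulated data limma recovered 78% of 100 genes changed by 1 on the log2 scale in the cassettes against Klf4 alone, 59% against lacZ, 51% for Klf4 alone against lacZ and 68% of slopes of 1. The members, lists and tests were chosen with earlier results of these data known. Named genes were the members, Pou5f1, up to 4 called genes per list (else the 2 with the largest difference) and the 6 likest patterns. Genes not matched to a probe set of 1 symbol were not analysed here. Alternatives were scaling, arrays left out, a filter on dim genes, probe set averaging, a variance trend and Myc in place of Pou5f1.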

Additional observations from a re-analysis of the deposited data

Results flagged for a closer look

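Among 58 named genes tested for a cassette far from the other 7, 3 had one; chance gives about 1 in 20 (Dixon's test, 95% level). Myc read 9.86 in EB-C5 and 10.49 to 10.91 in the other cassettes. Pcolce2, the procollagen cleavage enhancer, read 9.63 in STEMCCA, against 10.42 to 11.08. Plk1, a mitotic kinase, read 10.51 in MKOS, against 11.32 to 11.77. None of the 8 collagens had such a cassette, since STEMCCA and MKOS were high together.

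The longer form of Klf4 went with higher collagen signals inside the cassette pair and lower ones in Klf4 alone, for all 8 genes. The difference was not tested, since each construct was measured once. The cassette pair also differed in its Pou5f1 signal, which cannot be told apart from the form of Klf4. OK+9MS minus OKMS was 0.32 for Col1a1, 0.42 for Col1a2, 0.51 for Col3a1, 0.23 for Col5a1, 0.62 for Col5a2, 0.28 for Col6a1, 0.04 for Col6a2 and 0.18 for Col6a3. Klf4L minus Klf4S was -0.12, -0.05, -0.06, -0.03, -0.05, -0.10, -0.09 and -0.11 in the same order. Of all 19938 genes, 28.9% showed this pair of directions.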

How the results depend on the processing

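No paired analysis was possible because the labels give no replicate numbers. For the cassettes against Klf4 alone, 4 collagens were called and between 0 and 8 with 1 array left out; quantile normalization left 1, and the other planned settings gave 4 to 6. All genes called numbered 2885, and between 92 and 3968 with 1 array left out. Against lacZ the cassettes had 409 called genes, 184 with their own arrays alone, and 184 to 734 with 1 array left out; called collagens stayed at 0. Col6a3 changed sign there without MKOS (-0.048) and without STEMCCA (-0.021), with a range of -0.048 to 0.15 over the arrays left out. Klf4 alone against lacZ had 149 called genes, 0 on the 3 arrays alone (6485 at an unadjusted p under 0.05, with 1 residual degree of freedom) and 36 to 268 with 1 array left out, and 0 to 1 called collagens. For the Pou5f1 slope, 6 collagens and 175 genes were called; centring on array medians gave 3 collagens; the Myc signal gave 0 and 0 (1697 genes at an unadjusted p under 0.05), and so did leaving out STEMCCA and MKOS together (931); leaving out 1 cassette gave 0 to 1 collagens and 0 to 162 genes. The Col5a1 slope on Myc was 0.022, the opposite sign. Averaging probe sets changed no collagen call, since each collagen has 1 probe set.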

Other observations

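Markers of other cell types gave these values. Tek, an endothelial receptor kinase, was higher in the cassettes than in Klf4 alone by 1.65 ± 0.22 SE and than in lacZ by 3.33 (limma adjusted p = 0.00367 and 0.00093), while Kdr, another endothelial receptor kinase, was lower than in lacZ by -0.52 (limma adjusted p = 0.0212). The other 4 endothelial markers were not called in either comparison, and the mean of the 6 stayed between 6.58 and 6.93 on all 11 arrays. Des, the muscle filament desmin, was lower in the cassettes than in lacZ by -2.09 (limma adjusted p = 0.00571) and than in Klf4 alone by -1.45 (limma adjusted p = 0.00382). Myocd, of the same smooth muscle list, was lower than in lacZ by -1.30 (limma adjusted p = 0.0118), and the rest of that list was not called. The list mean was 10.41 in lacZ, 9.80 and 9.69 in Klf4 alone and 8.38 to 9.44 in the cassettes. Sox9, a cartilage transcription factor, was lower in the cassettes than in lacZ by -1.40 (limma adjusted p = 0.0378) and than in Klf4 alone by -1.11 (limma adjusted p = 0.0117). The keratinocyte list averaged 8.80 and 9.01 in Klf4 alone, 6.84 in lacZ and 6.55 to 9.47 in the cassettes, with STEMCCA (6.62), EB-C5, WTSI (6.64) and OKMS (7.02) in the lower part.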
